A study of Danio rerio with 6 samples.

Results

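The genes described here are 6 genes used as markers of Müller glia and of their reaction to retinal damage: *glula*, *rlbp1a*, *cahz*, *apoeb*, *gfap* and *stat3*. They were taken by their Ensembl identifiers, though earlier results of these data were known when they were chosen. All 6 were found among the 25190 genes of the count table and in the table of FPKM. Müller glia are the radial glial cells that span the retina from its inner to its outer surface. They take up the glutamate that neurons release and convert it to glutamine, buffer potassium, pH and water, carry retinoids for the photoreceptors, and supply lipids. After photoreceptors are damaged they become reactive, a state called gliosis. In zebrafish they can also divide and give rise to new neurons, and Stat3, a transcription factor switched on by cytokine receptors, is among the first factors to appear in them.

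RNA-Seq was run on whole retinas of larvae at 5 days postfertilization (dpf). WT larvae came from a cross of genotyped wild-type siblings of the mutant carriers, and *pde6c* larvae, homozygous for the *w59* allele of the cone phosphodiesterase gene *pde6c*, came from a cross of heterozygous carriers, so that effects of parentage and of the mutation cannot be told apart. There were 3 samples of each genotype (WR1, WR2 and WR3 for WT, PR1, PR2 and PR3 for *pde6c*), each a pool of 3 retinas from as many larvae that had been screened by their optokinetic response, and in *pde6c* every larva carries the defect in all of its cells while the gene itself is used in cones. All larvae were dark-adapted before dissection, and the RNA of every sample was amplified before sequencing.

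Between 18757605 and 22510222 fragments were counted on genes per sample. Values in CPM are these counts brought to the same scale with TMM-normalized library sizes, and 3 counts, taken as the smallest level that the depth can show, were 0.129 to 0.169 CPM. Of 17242 genes tested with edgeR (quasi-likelihood test, Benjamini-Hochberg adjustment), 636 (3.69%) had an adjusted *P*-value under 0.1, the threshold used throughout, with 241 (1.40%) higher and 395 (2.29%) lower in *pde6c*. The median log2 fold change of *pde6c* over WT was 0.00. The *pde6c* gene itself had no counts, because its span lies within that of *CEP55* and fragments on more than 1 gene were left out. In FPKM it was at 445, 655 and 520 in WR1 to WR3 and at 60.1, 140 and 84.8 in PR1 to PR3. *GNAT2*, the cone transducin, was at 4670, 3930 and 3459 CPM in WT and at 1054, 1263 and 795 CPM in *pde6c*, so cone transcripts were low in the columns named for *pde6c*.

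All 6 genes passed the filter on low counts, and 1 of them, *stat3*, was past the threshold, against 3.69% of all genes tested. *stat3* was 5.50-fold higher in *pde6c*. The other 5 did not pass: *glula*, *apoeb* and *gfap* had positive and *rlbp1a* and *cahz* negative log2 fold changes. The CPM of the genotypes did not overlap for *stat3* and *rlbp1a*, 2 of the 6, where 16.9% of all genes tested had no overlap. As whole retinas were sequenced, fewer cells of a type and less RNA per cell cannot be told apart.

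**Figure D1:**
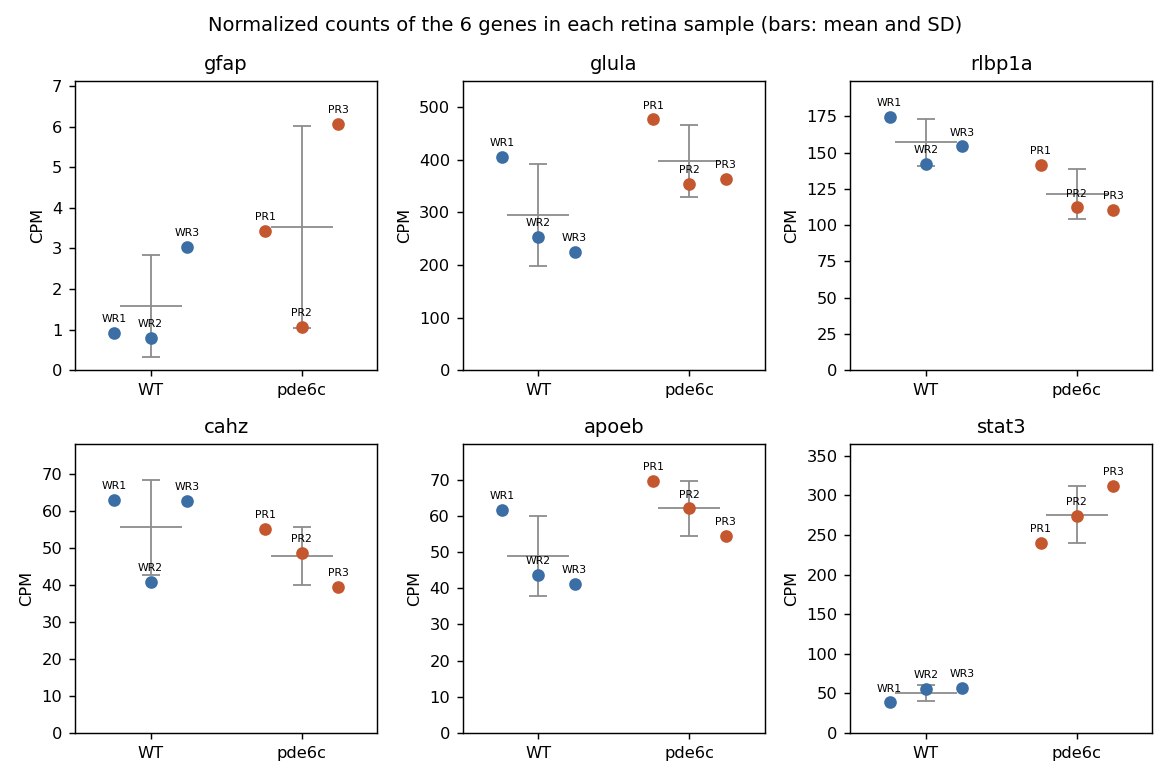
Normalized counts (CPM, vertical axis from 0) of each of the 6 genes in the 3 WT and the 3 *pde6c* samples, with 1 point per sample and the mean and SD as bars. For *stat3* every *pde6c* sample (240.3 to 312.3 CPM) lies above every WT sample (38.6 to 56.3 CPM), and for *rlbp1a* every *pde6c* sample lies below, while the other 4 genes overlap.

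Levels can be compared between genes only per length of transcript, which FPKM gives. In WT the order of the mean levels was *glula* at 392.3 FPKM, *rlbp1a* at 212.6, *apoeb* at 96.2, *cahz* at 57.1, *stat3* at 13.2 and *gfap* at 1.22 FPKM. No neighbours in this WT order had overlapping ranges over the samples. *glula* was above 99.5% of the genes of the count table, *rlbp1a* above 98.8%, *apoeb* above 97.0%, *cahz* above 94.3%, *stat3* above 75.0% and *gfap* above 42.3%. In *pde6c* the mean FPKM was 533.8 for *glula*, 179.5 for *rlbp1a*, 135.0 for *apoeb*, 60.2 for *stat3*, 50.7 for *cahz* and 2.92 for *gfap*. The order of the means thus changed in 1 place, where *stat3* stood above *cahz*. Only in PR3 was *stat3* the higher, at 80.3 against 44.7 FPKM. In PR1 and PR2 it was below *cahz*, at 51.1 against 54.2 and 49.2 against 53.1 FPKM. The ranges of the *pde6c* samples overlapped, so *stat3* and *cahz* did not differ beyond their spread in *pde6c*.

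**Figure D2:**
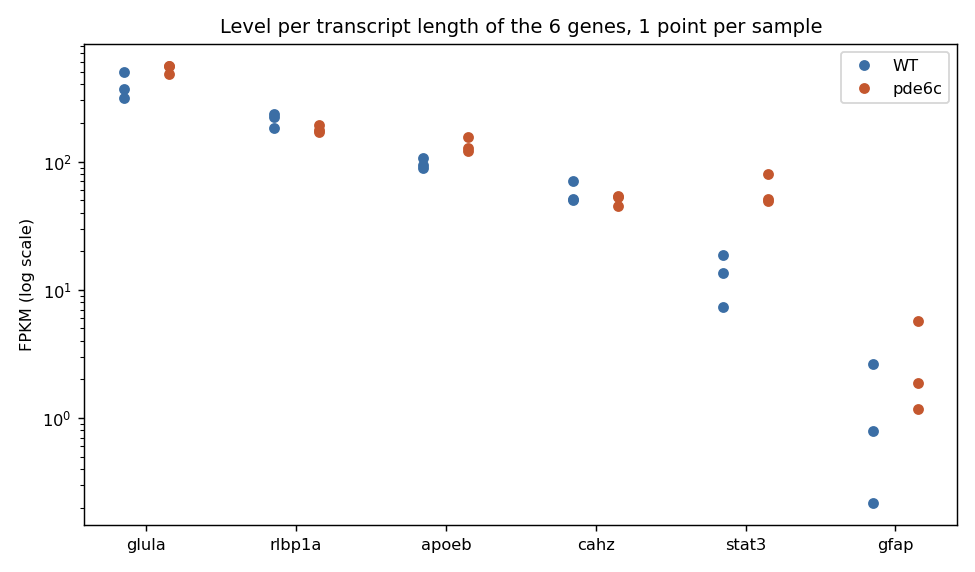
FPKM (log scale) of the 6 genes in each sample, with WT and *pde6c* side by side and 1 point per sample, ordered by the mean in WT. *stat3* lies at 7.40 to 18.6 FPKM in WT, below *cahz*, and at 49.2 to 80.3 FPKM in *pde6c*, where it overlaps *cahz*.

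*glula* (ENSDARG00000099776, GRCz10 chromosome 2 from 19339343 to 19343286, plus strand) encodes a glutamine synthetase, the enzyme that turns glutamate and ammonia into glutamine and, in the retina, a classic marker of Müller glia. It was at 404.9, 252.9 and 224.5 CPM in WR1 to WR3 and at 476.3, 353.6 and 363.6 CPM in PR1 to PR3. WR1 stood above the other WT samples and above PR2 and PR3, so the genotypes overlapped. The means were 294.1 ± 97.0 CPM in WT and 397.8 ± 68.1 CPM in *pde6c* (SD, 3 samples per genotype). The log2 fold change was 0.44 (standard error 0.20, 95% interval 0.01 to 0.86), with an adjusted *P*-value of 0.398 from edgeR. Without WR1 it was 0.75 with an adjusted *P*-value of 0.0314, which is past the threshold. Leaving out any other sample gave 0.28 to 0.51, not past it (adjusted *P* from 0.453 to 0.753 by edgeR). In FPKM the WT samples were at 496, 366 and 315 and the *pde6c* samples at 559, 484 and 558, which overlapped as well.

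The other copy, listed as *GLUL* (ENSDARG00000100003, chromosome 6), was at 115.8, 96.1 and 78.3 CPM in WT and at 181.7, 155.3 and 117.2 CPM in *pde6c*. Here the genotypes did not overlap, though WR1 and PR3 lay close to each other. Its log2 fold change of 0.65 (standard error 0.19) had an adjusted *P*-value of 0.110 from edgeR, just outside the threshold. A further copy, *glulc*, was under the smallest level that the depth can show in every sample.

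*rlbp1a* (ENSDARG00000012504, chromosome 7 from 13620944 to 13638474, minus strand) encodes a cellular retinaldehyde-binding protein, which holds 11-cis retinoids. In vertebrates this protein is found in Müller glia and in the retinal pigment epithelium. It was at 174.5, 142.3 and 154.3 CPM in WR1 to WR3 and at 141.4, 112.3 and 110.3 CPM in PR1 to PR3. All *pde6c* samples were below all WT samples, but the highest of them, PR1, was within 1 CPM of WR2. The log2 fold change was -0.37 (standard error 0.16, 95% interval -0.72 to -0.02), with an unadjusted *P*-value of 0.0378 and an adjusted one of 0.368 from edgeR. In FPKM, with 222, 234 and 182 in WT and 192, 177 and 170 in *pde6c*, the genotypes overlapped. The other copy, *rlbp1b*, was far lower, at 3.40 to 4.24 CPM in WT and 2.62 to 6.28 CPM in *pde6c* (adjusted *P* = 0.860 from edgeR), and its span overlaps another gene.

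Retinal pigment epithelium can stay attached to a dissected retina. The markers of that tissue summed to 412.2 to 536.2 CPM in WT and 443.2 to 512.0 CPM in *pde6c*, and most of each sum was *BHLHE40*, which many tissues express. None of the 20 that were tested passed the threshold, 2 had an unadjusted *P*-value under 0.05, and DESeq2 called 1. The genes listed as *RPE65*, of an isomerase of the visual cycle, had at most 2.44 CPM in any sample. The list of this tissue named *rpe65a* only, and the name of the matched genes does not tell which of them it is. What the pigment epithelium contributed to *rlbp1a* was not tested.

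*glula* and *rlbp1a* had differences of opposite sign, and their ratio within each sample was computed after this had been seen, so it restates that contrast and is given as a description. *glula* had 2.32, 1.78 and 1.46 counts per count of *rlbp1a* in WR1, WR2 and WR3, and 3.37, 3.15 and 3.30 in PR1 to PR3. The ratio was 1.85 ± 0.437 in WT and 3.27 ± 0.112 in *pde6c* (SD, 3 samples per genotype), 1.80-fold higher, with no overlap. By FPKM the ratios were 1.84 ± 0.350 and 2.98 ± 0.283, again without overlap.

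*cahz* (ENSDARG00000011166, chromosome 2 from 29493850 to 29501875, minus strand) encodes a carbonic anhydrase, an enzyme that interconverts carbon dioxide and bicarbonate and is used in zebrafish as a Müller glia marker, though red blood cells also hold carbonic anhydrase. It was at 63.1, 40.8 and 62.8 CPM in WR1 to WR3 and at 55.2, 48.8 and 39.6 CPM in PR1 to PR3. WR2 lay below PR1 and PR2, so the genotypes overlapped, as they did in FPKM. The log2 fold change was -0.22 (standard error 0.22, 95% interval -0.68 to 0.25, adjusted *P* = 0.797 from edgeR). The interval leaves room for a fall to 0.623-fold or a rise to 1.19-fold. The markers of vessels and blood summed to 337.1 to 375.9 CPM in WT and 298.9 to 330.4 CPM in *pde6c*, lower in every *pde6c* sample. Of 17 tested, edgeR and DESeq2 called 0, and 0 had an unadjusted *P*-value under 0.05. The globin gene *hbbe3* had no count in any sample and *hbae3* had at most 0.687 CPM, whereas *hbae1.1* and *hbae5*, also without counts, have spans that overlap other genes. The part of vessels and blood in the level of *cahz* was not tested. A related cytosolic carbonic anhydrase gene, *ca2*, was at 36.2, 26.0 and 28.2 CPM in WT and 36.8, 41.5 and 28.2 CPM in *pde6c* (adjusted *P* = 0.792 from edgeR).

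*apoeb* (ENSDARG00000040295, chromosome 16 from 24045712 to 24048429, plus strand) encodes an apolipoprotein E, which carries lipids between cells and is made by Müller glia and, in zebrafish, also by microglia. It was at 61.7, 43.7 and 41.3 CPM in WR1 to WR3 and at 69.8, 62.1 and 54.5 CPM in PR1 to PR3. WR1 again stood above the other WT samples and above PR3, so the CPM overlapped. The log2 fold change was 0.35 (standard error 0.21, 95% interval -0.10 to 0.79, adjusted *P* = 0.573 from edgeR). In FPKM the *pde6c* samples, at 121, 156 and 128, lay above the WT samples, at 106, 88.8 and 94.0, and the mean was 1.40-fold higher. Limma on log2(FPKM + 1) gave a difference of 0.48 with an adjusted *P*-value of 0.415. The copy *apoea* had at most 3.15 CPM in any sample.

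Beside *apoeb*, the microglia markers summed to 128.8 to 179.3 CPM in WT and 155.6 to 171.3 CPM in *pde6c*. None of the 23 tested passed the threshold, 3 had an unadjusted *P*-value under 0.05, and DESeq2 called 0. The complement genes *c1qa*, *c1qb* and *c1qc* had at most 0.675 CPM in any sample. Nearly all of each sum thus came from other genes of the list, which are not named here. The part of microglia in the level of *apoeb* was not tested.

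*gfap* (ENSDARG00000025301, chromosome 3 from 31660727 to 31672767, minus strand) encodes glial fibrillary acidic protein, an intermediate filament whose rise is the usual sign of gliosis in mammals. It had few counts: 21, 14 and 63 in WR1, WR2 and WR3 and 80, 23 and 125 in PR1 to PR3. This was 0.928, 0.788 and 3.03 CPM in WT and 3.43, 1.08 and 6.08 CPM in *pde6c*. WR3 stood above the other WT samples and above PR2, and the *pde6c* samples themselves spread widely. The log2 fold change of 1.15 (standard error 0.76, adjusted *P* = 0.625 from edgeR) had a 95% interval from -0.46 to 2.76. A rise as large as that of *stat3* and no change both lie in this interval. Whether *gfap* changed can therefore not be told from these counts and their spread. With 1 sample left out, its log2 fold change ran from 0.52 to 2.04.

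*stat3* (ENSDARG00000022712, chromosome 3 from 16880865 to 16957645, plus strand) encodes the transcription factor that Janus kinases phosphorylate below receptors of the interleukin 6 family. It was at 38.6, 55.4 and 56.3 CPM in WR1 to WR3 and at 240.3, 273.8 and 312.3 CPM in PR1 to PR3. The genotypes were far apart: the lowest *pde6c* sample was several times the highest WT sample. The means were 50.1 ± 9.99 CPM and 275.5 ± 36.1 CPM (SD, 3 samples per genotype). The log2 fold change was 2.46 (standard error 0.19, 95% interval 2.06 to 2.85, adjusted *P* = 1.23e-06 from edgeR), and only 6 of the 17242 genes had a lower *P*-value. Among the 5760 genes with a mean log2 CPM of at least 5, 7 had a higher log2 fold change.

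Counts were made over whole gene spans, introns included, and the span of *stat3* is 76781 bases long. In FPKM, which is scaled by transcript length, it was at 7.40, 18.6 and 13.5 in WT and at 51.1, 49.2 and 80.3 in *pde6c*, a ratio of the means of 4.57 with no overlap. Limma on log2(FPKM + 1) gave a difference of 2.16 with an adjusted *P*-value of 0.0309. The same fit without a filter on low FPKM gave the same difference with an adjusted *P*-value of 0.155, which is not past the threshold. Leaving out any 1 sample gave log2 fold changes from 2.31 to 2.56 and adjusted *P*-values from 5.54e-06 to 2.60e-05 by edgeR. None of the spans of the 6 genes overlaps another gene of the count table.

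The genes around *stat3* did not share its difference. Of the 6 others within 250 kb on either side, 5 were tested, edgeR and DESeq2 called 0 higher (0 at an unadjusted *P*-value under 0.05 as well), and edgeR called 1 lower. That one was *plcl5*, a gene of the phospholipase C-like family, with a log2 fold change of -0.86 (standard error 0.15, adjusted *P* = 0.00215 from edgeR). *stat5a*, a relative of *stat3* that lies next to it, was at 138.9, 167.3 and 177.5 CPM in WT and 129.0, 129.6 and 117.8 CPM in *pde6c*. The genotypes did not overlap, but its log2 fold change of -0.36 had an adjusted *P*-value of 0.361 from edgeR.

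The other genes of the pathway were taken from a list of interleukin 6 family ligands, receptors, Janus kinases, STATs and their inhibitors. Of 42 tested by edgeR, 4 (9.52%) were higher and 0 lower, where 1.40% of all genes tested were higher and 2.29% lower. At an unadjusted *P*-value under 0.05 there were 9 higher and 2 lower ones. DESeq2 called 7 higher and 1 lower. The median log2 fold change was 0.25, beside 0.00 over all genes tested. Many cytokines of this family bind a receptor that contains gp130, the product of *il6st*, to which JAK1 is attached. SOCS3 is made in response and shuts the same receptor off. Leptin, also on the list, instead binds the product of *lepr*.

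DESeq2 called 3 ligand genes, and 3 had an unadjusted *P*-value under 0.05 from edgeR. Among 7 ligand genes tested by edgeR, 1 was called higher. This was *lepa*, of the cytokine leptin, whose WT counts were 0, 1 and 1 and whose *pde6c* counts were 12, 23 and 45 (adjusted *P* = 0.0352 from edgeR). All WT samples were under the smallest level that the depth can show. The size of the difference is therefore uncertain, and the call was lost in 4 of the 6 fits with 1 sample left out. *crlf1a*, of a soluble cytokine receptor-like factor, did not pass in edgeR with a log2 fold change of 1.73 (adjusted *P* = 0.160), nor did *il11a* with -1.75.

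Of 8 receptor genes tested, edgeR called 1 higher and 7 had a log2 fold change above 0. DESeq2 called 2 of them, and 3 had an unadjusted *P*-value under 0.05 from edgeR. *il6st* was at 40.8, 60.4 and 43.1 CPM in WR1 to WR3 and at 86.8, 109.0 and 148.0 CPM in PR1 to PR3. The genotypes did not overlap, and PR3 was the highest sample, as for *stat3*. Its log2 fold change was 1.25 (standard error 0.22, adjusted *P* = 0.00326 from edgeR). *lepr*, the leptin receptor, had a log2 fold change of 1.67 with an adjusted *P*-value of 0.104 from edgeR and did not pass. *cntfr* and *lifra*, of receptors for related cytokines, were at 0.10 and 0.04.

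Of 3 Janus kinase genes tested, *JAK1* was higher. It was at 111.9, 117.2 and 123.9 CPM in WT and at 213.5, 241.1 and 256.5 CPM in *pde6c*, without overlap and with little spread inside each genotype. Its log2 fold change was 1.01 (standard error 0.15, adjusted *P* = 7.70e-04 from edgeR), while that of *JAK2* was -0.10. By FPKM neither *JAK1* (0.85, adjusted *P* = 0.394) nor *il6st* (1.18, adjusted *P* = 0.250) passed in limma, where WR3 was the highest WT sample for *JAK1* at 37.1 FPKM and lay above PR2 at 36.0.

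Of 7 other STAT genes tested, edgeR called 0, 2 had an unadjusted *P*-value under 0.05, and DESeq2 called 1. *STAT4* came closest, with a log2 fold change of 1.92 and an adjusted *P*-value of 0.102.

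Of 6 inhibitor genes tested, *SOCS3* (ENSDARG00000026611) was higher. It was at 10.6, 9.01 and 7.71 CPM in WT and at 23.3, 38.4 and 39.2 CPM in *pde6c*. PR1 was the lowest *pde6c* sample, as for *stat3*, and still more than doubled the highest WT sample. Its log2 fold change was 1.89 (standard error 0.30, adjusted *P* = 0.00127 from edgeR), and it also passed in limma on log2(FPKM + 1), with 2.06 and an adjusted *P*-value of 0.0577. The other copy listed as *SOCS3* (ENSDARG00000025428) was called by neither edgeR nor DESeq2. Of 5 phosphatase and 6 target genes tested, edgeR and DESeq2 called 0, and 0 had an unadjusted *P*-value under 0.05. Limma on log2(FPKM + 1) called 1 gene of the whole list, so the number of calls depended on the test.

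**Figure D3:**
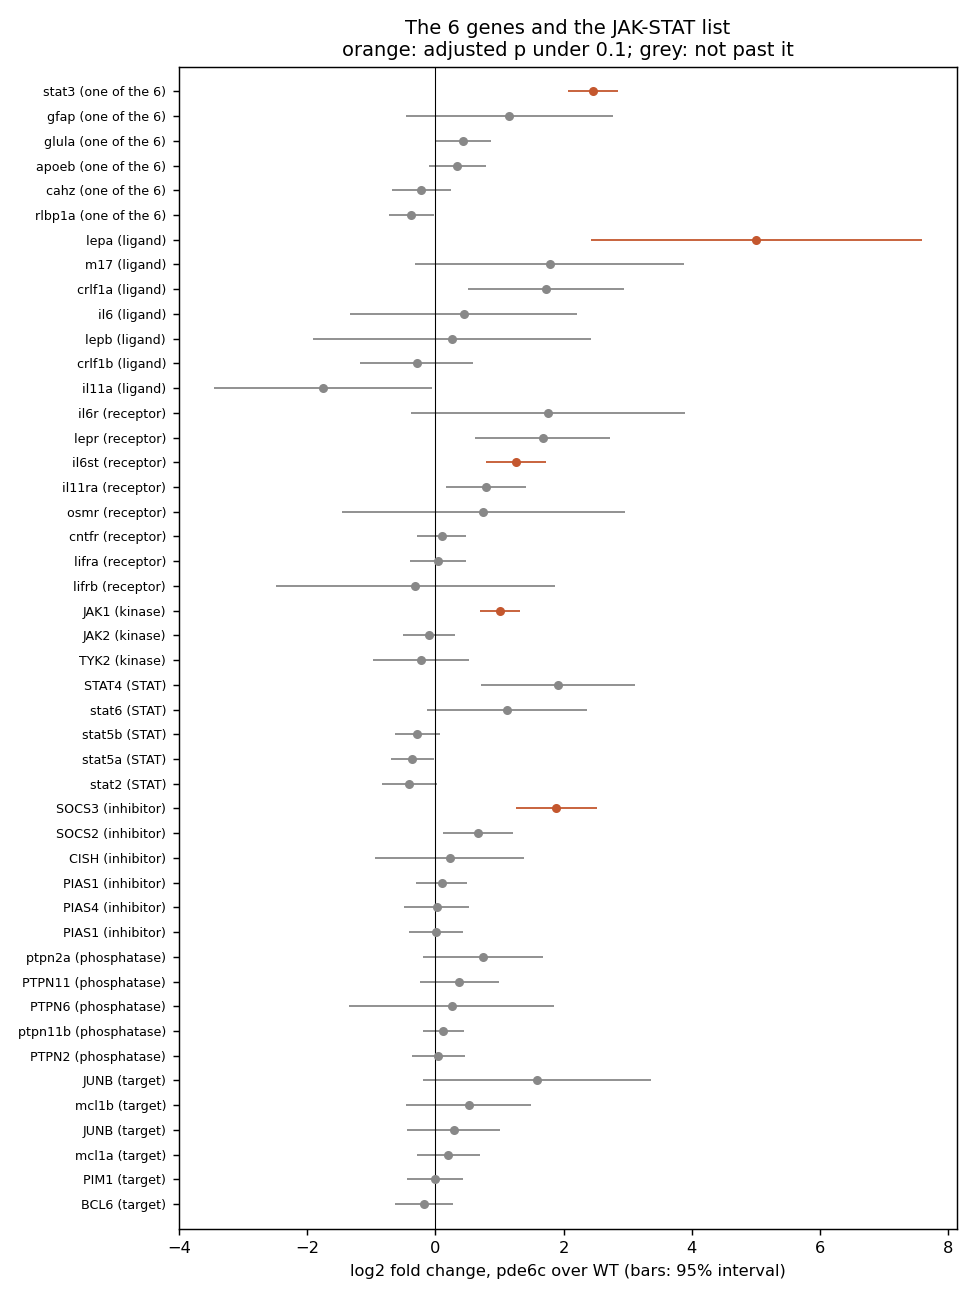
Log2 fold change of *pde6c* over WT (horizontal axis) with its 95% interval for the 6 genes and, grouped by role, tested genes of the JAK-STAT list, in orange where the adjusted *P*-value was under 0.1. *stat3*, *il6st*, *JAK1*, *SOCS3* (ENSDARG00000026611) and *lepa* are in orange. The point of *lepa* rests on at most 1 count in each WT sample, so its size is uncertain.

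A list of genes of gliosis, injury and reprogramming in zebrafish Müller glia held 31 tested genes. By edgeR 5 (16.1%) were higher and 0 lower, where 1.40% of all genes tested were higher and 2.29% lower. At an unadjusted *P*-value under 0.05 there were 6 higher and 2 lower ones, and DESeq2 called 6 higher and 1 lower. The median log2 fold change was 0.04, close to the 0.00 of all genes. Besides *SOCS3* and *lepa*, which the JAK-STAT list also holds, the 5 were *SOX11*, *FOSL1* and *HSPD1*.

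The copy of *SOX11* on chromosome 20 (ENSDARG00000095743), of a transcription factor of neural progenitors, was at 34.4, 29.0 and 29.9 CPM in WT and at 96.2, 157.8 and 124.9 CPM in *pde6c* (log2 fold change 2.02, standard error 0.21, adjusted *P* = 2.03e-05 from edgeR). *FOSL1*, of a partner of JUN in the AP-1 transcription factor, was at 11.2, 14.0 and 13.3 CPM in WT and at 41.2, 40.4 and 40.9 CPM in *pde6c* (1.67, standard error 0.24, adjusted *P* = 6.38e-04 from edgeR). In this copy of *SOX11* and in *FOSL1* every *pde6c* sample was far above every WT sample. The other copy listed as *SOX11* (ENSDARG00000077811) was not called by edgeR. *HSPD1*, of a mitochondrial chaperone, had a log2 fold change of 1.03 (standard error 0.21, adjusted *P* = 0.0103 from edgeR). Among the list genes that mark reprogramming in zebrafish, *ascl1a* and *MMP9* did not pass, and they were picked after their values were seen. *ascl1a* was at 3.66 to 5.08 CPM in WT and 1.80 to 4.08 CPM in *pde6c* (log2 fold change -0.61, adjusted *P* = 0.759 from edgeR). *MMP9*, of a matrix metalloproteinase, had 0.28 (adjusted *P* = 0.917).

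**Figure D4:**
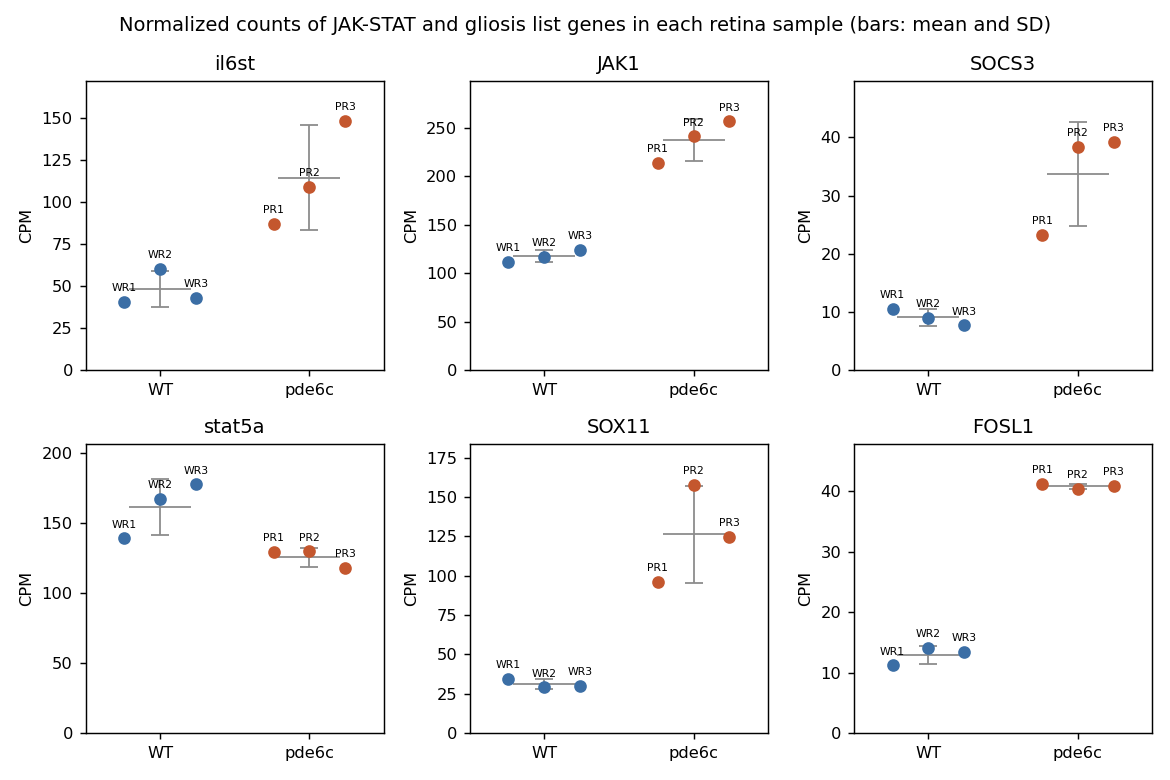
Normalized counts (CPM, vertical axis from 0) of *il6st*, *JAK1*, *SOCS3*, *stat5a*, *SOX11* and *FOSL1* in each sample, with the mean and SD as bars. In *FOSL1* the *pde6c* samples lie between 40.4 and 41.2 CPM and the WT samples between 11.2 and 14.0 CPM, and *stat5a* is the only 1 of the 6 whose *pde6c* samples lie below.

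Of 32 tested genes matched to a list of other Müller glia markers, edgeR called 3 (9.38%) lower and 0 higher. Over all genes tested, 2.29% were lower and 1.40% higher. At an unadjusted *P*-value under 0.05 there were 4 higher and 4 lower ones, and DESeq2 called 2 higher and 3 lower. The median log2 fold change of the 32 genes was 0.03. All 37 matched genes of the count table, tested or not, summed to 2905 to 3095 CPM in WT and 2576 to 2794 CPM in *pde6c*, without overlap. Abundant genes weigh most in such a sum, and it holds the copy of *SLC1A2* on chromosome 7 described below. The part of that copy in the lower sum was not tested. The list named *slc1a2b* only, and both copies of *SLC1A2* were matched to it because their names carry no copy letter. Which copy is the named marker was not settled. The lowest adjusted *P*-value was that of the copy of *SLC1A2* on chromosome 7 (ENSDARG00000052138), of a glutamate transporter that in mammals is also found in photoreceptors and bipolar cells. In FPKM it was at 150, 242 and 119 in WT and at 28.6, 34.1 and 23.2 in *pde6c*, far apart. By counts it was 6.69-fold lower, with a log2 fold change of -2.74 (standard error 0.23, adjusted *P* = 2.26e-06 from edgeR).

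The copy of *SLC1A2* on chromosome 25 (ENSDARG00000102453) was at 349.6, 327.0 and 307.7 CPM in WT and 347.1, 371.6 and 308.6 CPM in *pde6c*. These overlapped almost fully, with a log2 fold change of 0.06 (adjusted *P* = 0.930 from edgeR). The proteoglycan genes *cspg5b* (-0.77, adjusted *P* = 0.0364) and *cspg5a* (-0.60, adjusted *P* = 0.0644) were lower too, but their calls held in only 3 and 2 of the 6 fits with 1 sample left out. *VIM* (ENSDARG00000010008), of the filament protein vimentin that reactive glia hold beside Gfap, had no counts because its span lies within that of another gene. In FPKM it ran from 2.98 to 9.33 in WT and from 7.97 to 16.0 in *pde6c*, which overlapped. The other gene listed as *VIM* (ENSDARG00000044501) was not called by edgeR.

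Cone and rod transcripts moved with the genotype as well. The cone markers summed to 19420 to 21790 CPM in WT and 8080 to 11050 CPM in *pde6c*, with 13 lower and 2 higher of 24 tested, and the rod markers to 4485 to 5430 and 2282 to 3017 CPM, with 5 lower and 0 higher of 20 tested (0 higher by DESeq2 or at an unadjusted *P*-value under 0.05). The markers of inner retina neurons overlapped, at 6773 to 7569 CPM in WT and 7077 to 7579 CPM in *pde6c*. Lens and surface markers were at low levels and did not overlap either, at 13.0 to 14.7 CPM in WT and 19.6 to 44.1 CPM in *pde6c*, of which *cdh1*, of the epithelial cadherin, had a log2 fold change of 3.72 (adjusted *P* = 8.68e-05 from edgeR). The part of these shifts in the levels of the 6 genes was not tested.

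**Figure D5:**
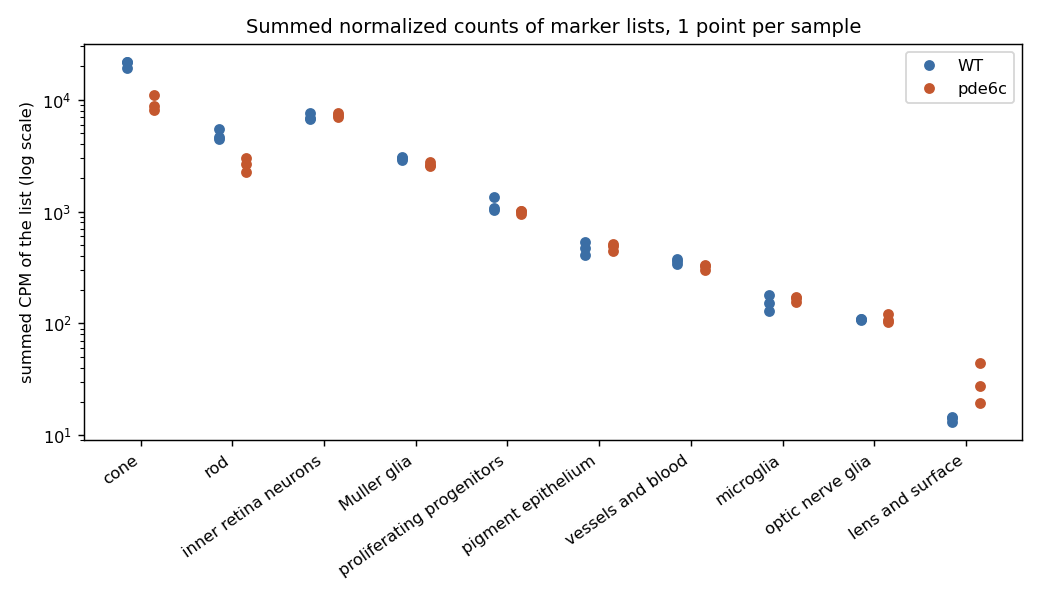
Summed CPM (log scale) of the markers of each cell type in the 3 WT and the 3 *pde6c* samples, with 1 point per sample. The cone, rod, Müller glia, proliferation and vessel and blood sums lie lower in every *pde6c* sample, the lens and surface sum lies higher, and the other 4 overlap. The Müller glia sum holds the copy of *SLC1A2* on chromosome 7, which may not be the named marker.

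Each of the other roles of the 6 genes was followed in a list of its own. Beside the counts below, edgeR called 1.40% of all genes tested higher and 2.29% lower. Among 31 tested genes of glutamate and GABA handling, the role of *glula*, edgeR called 0 higher and 3 lower, with a median log2 fold change of 0.05. At an unadjusted *P*-value under 0.05 there were 5 higher and 5 lower ones, and DESeq2 called 3 higher and 4 lower. Beside *SLC1A2* these were *slc1a8a* (-1.29, adjusted *P* = 9.43e-04 from edgeR) and *slc1a8b* (-1.17, adjusted *P* = 0.00895), of glutamate transporters of the same family. Among 34 tested genes of retinoid binding and the visual cycle, the role of *rlbp1a*, 1 was higher and 3 were lower, with a median of -0.06. *rbp3*, of the retinoid carrier between photoreceptors and their neighbours, was at 151.4, 84.9 and 166.7 CPM in WT and at 17.9, 18.5 and 14.1 CPM in *pde6c*, 7.97-fold lower (adjusted *P* = 2.26e-06 from edgeR). *rbp4l*, of a retinol-binding protein, was 2.37-fold higher (log2 fold change 1.25, adjusted *P* = 0.00253 from edgeR), and *ABCA4* and *RDH8*, which act in photoreceptors, had -0.88 (adjusted *P* = 0.0242) and -0.64 (adjusted *P* = 0.0449), each with a span that overlaps other genes. The called copies were ENSDARG00000057169 and ENSDARG00000105060, and other copies listed under these names were not called by edgeR. These 2 calls each held in only 2 of the 6 fits with 1 sample left out, and the list kept 2 calls without WR3, without PR1 or without PR3.

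In the list around *cahz*, of carbonic anhydrases and bicarbonate and proton transporters, 2 were higher and 1 lower of 15 tested, with a median log2 fold change of 0.03. No carbonic anhydrase was among them: the 2 were copies of the anion exchanger *SLC4A2*, on chromosome 2 (1.46, adjusted *P* = 0.0106 from edgeR) and chromosome 24 (1.27, adjusted *P* = 0.0590), and the 1 was the bicarbonate transporter *SLC4A4* (-0.74, adjusted *P* = 0.0889). The calls of the copy on chromosome 24 and of *SLC4A4* held in only 2 of the 6 fits with 1 sample left out, and limma on log2(FPKM + 1) called none of the 3, with 0.03 for the copy on chromosome 24. The other copy listed as *SLC4A4* (ENSDARG00000013730) was not called by edgeR. In the list around *apoeb*, of apolipoproteins and cellular lipid transport, edgeR called 0 higher and 4 lower of 39 tested, with a median of -0.17. At an unadjusted *P*-value under 0.05 there were 2 higher and 6 lower ones, and DESeq2 called 1 higher and 5 lower. Among the 4 were the cholesterol exporters *abca1b* (-2.62, adjusted *P* = 0.0155 from edgeR) and *ABCG1* (-0.69, adjusted *P* = 0.0556), and *MYLIP* (-0.67, adjusted *P* = 0.0410), which degrades the LDL receptor. The calls of *ABCG1* and *MYLIP* held in 2 and 3 of the 6 fits with 1 sample left out. Over the 13 alternatives that held *abca1b* its log2 fold change ran from -3.18 to -0.19, so its size is uncertain. The other copy listed as *MYLIP* (ENSDARG00000055118) was not called by edgeR.

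In the list around *gfap*, of intermediate filaments, 1 was higher and 2 were lower of 19 tested, with a median log2 fold change near 0. The copy of *INA* (ENSDARG00000011862), of the neuronal filament internexin, was at 92.6, 76.7 and 80.8 CPM in WT and at 31.3, 22.1 and 14.2 CPM in *pde6c* (-1.89, adjusted *P* = 2.92e-04 from edgeR), and *synm*, of synemin, had -1.20 (adjusted *P* = 0.00155). *LMNA*, of a nuclear lamin, had WT counts of 3, 0 and 8 and *pde6c* counts of 89, 62 and 79 (adjusted *P* = 0.0192 from edgeR), so its fold is uncertain in size. *nes*, of the progenitor filament nestin, was at 1.07 to 5.35 CPM in WT and 0.923 to 2.06 CPM in *pde6c* and did not pass (adjusted *P* = 0.714).

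Profiles over the 6 samples were compared by the root mean square difference of centred log2 CPM, among 5655 other genes with a mean log2 CPM of at least 5. Nearest to *stat3* were *JUN* at 0.283, of the AP-1 transcription factor, and *FAIM2* at 0.344, of an inhibitor of Fas-driven cell death, both higher in *pde6c* (adjusted *P* = 1.13e-05 and 1.67e-05 from edgeR). No gene lay within 0.15 of *stat3*. Nearest to *glula* were *ZNF598* at 0.061 and *apoeb* at 0.127, and 10 genes lay within 0.15, so *glula* and *apoeb* shared their pattern, with WR1 and PR1 as the highest sample of each genotype. Nearest to *rlbp1a* were *CLINT1* at 0.048 and *MAPRE2* at 0.055, with 192 genes within 0.15. For *cahz* they were *si:dkey-219c3.2* at 0.049 and *RFX7* at 0.068, for *apoeb* *ERCC6* at 0.070 and *RPS3A* at 0.074, and for *gfap* *RHOT1* at 0.741 and *lonrf4* at 0.744, of 5656 genes, which is no close likeness. These distances are over 6 samples, within each of which all genes share a library and its depth, and are a description. In 4 of the 6 genes, *glula*, *rlbp1a*, *cahz* and *apoeb*, sample 1 was the highest of both genotypes, whereas *gfap* and *stat3* were highest in WR3 and PR3. The share of all genes tested with sample 1 highest in both genotypes was not counted, so this is not read as a trait of these genes.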

How the data were processed

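The authors trimmed the reads, aligned them with STAR 2.5.3a to GRCz10 (Ensembl release 89) and used featureCounts 1.5.2 to make the deposited table of raw counts. It holds fragments over whole gene spans without strand, leaving out fragments that mapped to several places or genes. A further deposited table holds FPKM that the authors computed with Cufflinks 2.2.1.

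Counts were tested with edgeR 4.0.16 (filterByExpr with a minimum count of 10, TMM, quasi-likelihood test of genotype, Benjamini-Hochberg over 17242 genes) in R 4.3.3. Standard errors are the log2 fold change over the square root of F. The procedure was tested on simulated data. Alternatives were DESeq2 1.42.0, limma 3.58.1 on log2(FPKM + 1) where 3 libraries or more reached an FPKM of 1, other filters, pseudocounts, thresholds and normalization, the replicate number as a block, and each sample left out.

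The genes and lists were chosen with earlier results of these data known. Symbols came from a name table that gives many genes in capitals without a copy letter. List symbols were therefore also matched without that letter, a rule made after the table was seen, and 503 of 551 matched. Named from a list were up to 4 genes past the threshold with the lowest adjusted *P*-values, close copies, and nearest profiles. Other genes named, such as *ascl1a*, *MMP9*, *nes*, *lepr* and *STAT4*, were chosen after their values were seen. Whether near-identical copies share fragments, and sequences of promoters or proteins, were not analysed here, and some genes of the lists are counted but not reported by name here.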

Additional observations from a re-analysis of the deposited data

How the results depend on the processing

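No direction of the 6 genes changed in any of the 15 alternatives run for each. The calls of *glula* and *stat3* did. *glula* passed the threshold only with the replicate block (log2 fold change 0.47, adjusted *P* = 0.0283 by edgeR) and without WR1 (0.75), and ran from 0.28 to 0.75 with 1 sample left out. *stat3* (2.46) was lost only in limma on unfiltered FPKM (2.16, adjusted *P* = 0.155). Same-numbered samples are different larvae, whose deviations correlated at 0.140, 0.0523 and 0.0499. No label says whether they shared a clutch, a day or a batch, and this was not tested. The numbers of calls, with all samples and edgeR first, were as follows. Of all genes, 636 were called, against 1081 by DESeq2 (633 shared), 984 with the replicate block (627 shared), 205 by limma on log2(FPKM + 1), 181 with a pseudocount of 0.1, 64 without a filter, and 414 to 537 with 1 sample left out. Of the 6 genes it was 1, against 2 with the block, 0 in unfiltered limma, and 1 to 2. Müller glia markers gave 3, against 5 by DESeq2, 5 without a filter on counts, 5 with at least 10 counts in every sample, 6 with the block, 1 in unfiltered limma, and 1 to 4 with 1 sample left out (1 without WR3 or without PR2). The gliosis list gave 5, against 3, 3 and 0 in the limma fits, in the order above. The JAK-STAT list gave 4, against 8 by DESeq2 and 1, 1 and 0 by limma. Glutamate handling gave 3, against 7 by DESeq2, 7 with the block, and 5 with at least 10 counts in every sample. The retinoid list gave 4, against 2, 2 and 1 by limma and 2 to 5 with 1 sample left out (2 without WR3, PR1 or PR3). Carbonic anhydrases and transporters gave 3, against 0, 0 and 0 by limma, 1 at an adjusted *P*-value under 0.05, and 1 to 2 (1 without WR2 or WR3). The lipid list gave 4, against 0, 0 and 0 by limma and 2 to 4 (2 without PR3). Intermediate filaments gave 3, against 1 in unfiltered limma. The cause of each change was not tested. Of the 6 genes, *gfap* had the fewest counts, with 14 to 125 per sample and a wide spread inside each genotype.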

Other observations

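Genes outside glia were also among the lists. *cabp5a*, of a calcium-binding protein of bipolar cells, was at 29.8, 29.1 and 20.5 CPM in WR1 to WR3 and at 96.5, 107.5 and 185.3 CPM in PR1 to PR3, 4.91-fold higher (log2 fold change 2.29, standard error 0.25, adjusted *P* = 3.91e-05 from edgeR). It was the 1 gene called by edgeR of 36 tested markers of inner retina neurons, whose summed CPM overlapped between the genotypes, and DESeq2 called 2. Of 28 tested genes of proliferating progenitors, edgeR called 0 and DESeq2 1, while 5 had an unadjusted *P*-value under 0.05 and the median log2 fold change was -0.26. All 30 matched genes of the count table, tested or not, summed to 1034 to 1358 CPM in WT and 952.1 to 1022 CPM in *pde6c*. *PCNA*, of the sliding clamp of DNA replication, was at 121.1, 105.8 and 79.9 CPM in WT and 114.1, 89.3 and 113.1 CPM in *pde6c*, which overlapped.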
